A study of Rattus norvegicus with 9 samples.

Results

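Interferon-stimulated genes are the transcripts that cells raise when interferons reach their receptors, and 39 of them were followed in cultured kidney fibroblasts given either of 2 compounds. The members were picked by a list of gene symbols. All 39 matched a single row each of the 22050 genes in the deposited table, and all 39 were among the 11473 genes with enough counts to test. By role they were 4 STAT and IRF factors, 15 antiviral effectors, 5 sensors of nucleic acids, 7 genes of the ISG15, ubiquitin and ADP-ribose system and 8 other induced genes.

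The cells were NRK-49F, an established line of rat renal fibroblasts with a wild-type genotype label, and RNA-seq was made on 9 libraries. TGF-β1, which turns fibroblasts into matrix-producing cells, was present in all of them, with an incubation of 48 h. The groups were TGF-β1 with the compound YWCH-4A (3 libraries), TGF-β1 with the compound YEXX-2A (3 libraries) and TGF-β1 with vehicle (3 libraries). The labels give neither the doses of the compounds nor how long they were present, and both are known here by code name. Untreated fibroblasts were not analysed here. The series' design text calls the replicates biological without saying whether cultures were set up separately, so p-values measure the spread between libraries, which may be technical.

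Interferon-stimulated genes work in layers. Type I and type III interferons bind receptors at the cell surface, the kinases JAK1 and TYK2 phosphorylate STAT2, which joins IRF9 in a complex that binds the interferon-stimulated response element (ISRE) in promoters. Interferon gamma acts through another promoter element, the gamma-activated site (GAS). IRF1 and IRF7 are themselves induced and bind ISRE-like elements, and IRF7 amplifies the production of type I interferon. The effectors at the end of the chain bind viral RNA, degrade it, trap virions or halt translation, and many are present at a low level in cells that no virus has reached.

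Promoter sequences are shown first because they can hold the elements named above. RefSeq promoter windows (assembly GRCr8, 250 bases before to 50 after the gene start) were found for 29 of the 39 members. The windows were searched on both strands for the ISRE core (a pair of GAAA runs 2 bases apart), the GAS core TTCNNNGAA and the NF-κB consensus, a motif of 10 bases. The ISRE core was in the window of 19 of 29 members (65.5%) and in 3.92% of all 33469 windows. The GAS core was in 7 of 29 members (24.1%) and 8.87% of all windows, and the NF-κB consensus in 2 of 29 (6.9%) and 4.18% of all windows. A match describes the letters of the window and is not a measured binding site. The following stretches show a window with no ISRE core (Irf1), the member that fell with YEXX-2A and rose with YWCH-4A, and windows that hold the core (Irf7, Rsad2, Samd9 and Parp14), each on the gene's own strand with matches in capitals.
Irf1, chr10:38417685-38417984, plus strand: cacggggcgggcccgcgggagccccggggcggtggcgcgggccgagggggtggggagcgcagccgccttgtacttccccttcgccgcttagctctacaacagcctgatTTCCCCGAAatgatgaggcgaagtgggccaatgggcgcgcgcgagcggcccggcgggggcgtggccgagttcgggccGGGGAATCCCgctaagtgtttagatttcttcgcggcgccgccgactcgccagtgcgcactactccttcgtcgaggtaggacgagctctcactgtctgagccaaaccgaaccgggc
Irf7, chr1:205800063-205800112, minus strand: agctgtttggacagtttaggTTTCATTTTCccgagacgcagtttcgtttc
Rsad2, chr6:48788238-48788287, minus strand: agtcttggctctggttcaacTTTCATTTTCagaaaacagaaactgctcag
Samd9, chr4:32138946-32139014, minus strand: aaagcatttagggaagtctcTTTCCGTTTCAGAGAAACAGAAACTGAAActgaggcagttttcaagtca
Parp14, chr11:78408038-78408087, plus strand: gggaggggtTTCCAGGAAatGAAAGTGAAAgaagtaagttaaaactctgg
In the Irf1 window the first capital run is a GAS match, whose first base lies at -142 when the gene start is counted as 1, and the next is an NF-κB match at -65. The ISRE matches begin at -69 in Irf7, at -147 in Rsad2 and at -76 in Parp14, where a GAS match lies just before it at -87. Samd9 held 3 ISRE matches, at -36, -23 and -17, and a GAS match at -29, which overlap in a single run of capitals. Motifs on the other strand read TTTC in place of GAAA, as in Irf7 and Rsad2.

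Library totals lay between 13675880 and 21923706 counts, which limits the precision of low members. Levels are given in CPM, counts scaled to library size, and in FPKM, which also divides by transcript length and is used where genes are compared. Vehicle replicate 2 stood apart from the other vehicle libraries. The biological coefficient of variation, the spread between libraries beyond counting error, was 3.67% among YWCH-4A libraries, 7.34% among YEXX-2A libraries, 16.7% among vehicle libraries and 4.69% among vehicle libraries without replicate 2. For 23 of the 39 members vehicle replicate 2 had the lowest CPM of the vehicle libraries, and the median log2 ratio of its CPM to the mean of the other vehicle libraries was -0.24 for members, -0.54 for the antiviral effectors, 0.21 for the STAT and IRF factors and -0.01 for all tested genes. Counts of members called over vehicle, for all members and by role, are therefore also given without it. So are the counts of all members called between the compounds. Ranks, counts of libraries that do not overlap, counts by promoter and counts by role between the compounds are given with it only. A gene was called at an edgeR quasi-likelihood p under 0.05 after Benjamini-Hochberg adjustment over all tested genes. The 95% intervals given below are approximate and narrower than this test implies.

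Most members were higher with YEXX-2A than with vehicle, and most were not with YWCH-4A. With YEXX-2A, 28 members rose, 1 fell and 10 were not called, beside 17.6% of all tested genes that rose and 18.5% that fell. With YWCH-4A, 11 rose, 3 fell and 25 were not called, beside 15.7% of all tested genes that rose and 14.9% that fell. Between the compounds, 2 members were higher and 21 lower with YWCH-4A than with YEXX-2A, beside 16.2% and 15.1% of all tested genes. The median log2 fold change of the members was 0.71 for YEXX-2A over vehicle (0.01 over all tested genes), 0.09 for YWCH-4A over vehicle (0.03 over all tested genes) and -0.47 for YWCH-4A over YEXX-2A (-0.0004 over all tested genes). The comparisons share libraries, so their values are set side by side and not correlated. In bulk RNA a change in the share of cells that express a gene and a change in RNA per cell cannot be told apart.

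With YEXX-2A over vehicle, at least a 2-fold rise was called for 13 members, beside 1.56% of all tested genes. No member fell by that much, beside 0.924% of all tested genes. With YWCH-4A over vehicle, 4 members were at least 2-fold higher and 1 at least 2-fold lower, beside 3.21% and 2.95% of all tested genes. Without vehicle replicate 2, Eif2ak2, Herc6, Ifih1, Ifit2 and Xaf1 lay below 2-fold with YEXX-2A, at log2 fold changes of 0.80 to 0.97. Ifi44 and Parp14 then lay below 2-fold with YWCH-4A, at 0.82 and 0.83, while Irf1 reached it, at 1.0003. For YWCH-4A over YEXX-2A 1 member, Irf1, was at least 2-fold higher and 13 at least 2-fold lower, beside 3.07% and 3.62% of all tested genes. Among the 114 genes with the highest log2 fold changes for YEXX-2A over vehicle (the top 1%), 8 were members, and 17 were among the top 573 (5%). For YWCH-4A over YEXX-2A, 14 members were among the 573 genes with the lowest log2 fold changes. Groups without overlapping libraries were found for 31 members higher and 1 lower with YEXX-2A than with vehicle (25.3% and 26.3% of all tested genes). For YWCH-4A and vehicle they numbered 14 higher and 4 lower (24.9% and 21% of all tested genes). For YWCH-4A and YEXX-2A they numbered 4 higher and 24 lower (29.9% and 29.1% of all tested genes). Without vehicle replicate 2, 33 members rose and 1 fell with YEXX-2A, with a median log2 fold change of 0.59, beside 17.5% and 17.6% of all genes tested in that fit. With YWCH-4A 16 rose and 6 fell, with a median of 0.09, beside 20.3% and 19.1% of all genes tested. Between the compounds 3 were then higher and 25 lower with YWCH-4A than with YEXX-2A, beside 25.4% and 26.1% of all genes tested.

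**Figure D1:**
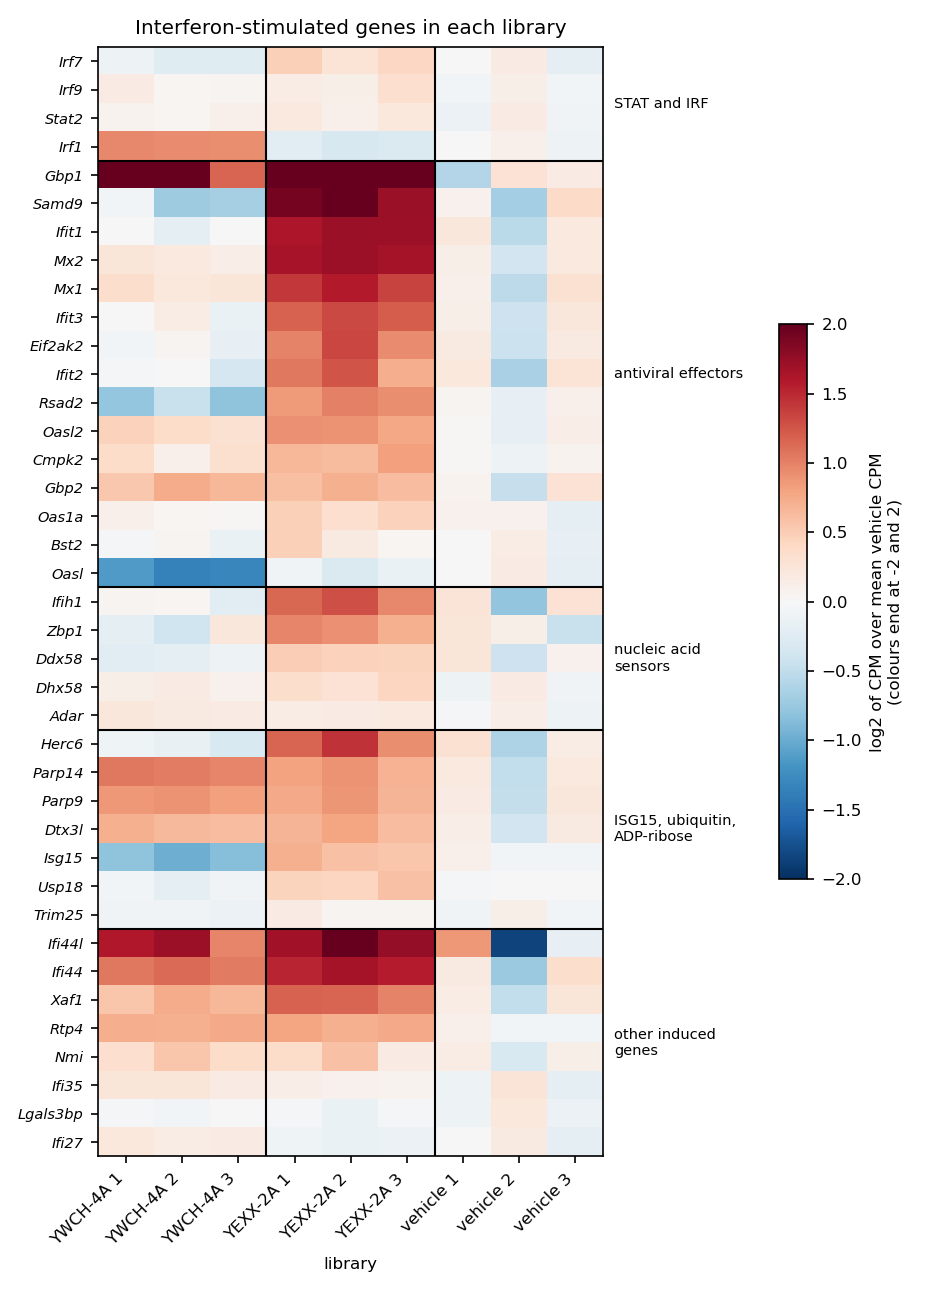
Log2 of the CPM in each library over the mean vehicle CPM for the 39 members (rows, by role) in the 9 libraries (columns), with colours ending at -2 and 2. The antiviral effectors are mostly red in all YEXX-2A libraries and near the vehicle level in the YWCH-4A libraries, Irf1 shows the opposite order, and vehicle replicate 2 is the lowest vehicle column for 23 of the 39 members.

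The STAT and IRF factors were set beside the antiviral effectors. With YEXX-2A, 13 of 15 effectors rose and none fell, while of the 4 STAT and IRF factors Irf7 rose and Irf1 fell. Of all tested genes 17.6% rose and 18.5% fell with YEXX-2A, and 15.7% rose and 14.9% fell with YWCH-4A. The median log2 fold change for YEXX-2A over vehicle was 1.03 for the effectors and 0.19 for the factors. For YWCH-4A over vehicle the median was 0.01 for the effectors and 0.08 for the factors, with 3 effectors higher and 2 lower, and only Irf1 called among the factors. Without vehicle replicate 2 the count of effectors called in these comparisons was the same, 13 of 15 higher with YEXX-2A and 3 higher and 2 lower with YWCH-4A, while among the 4 factors 3 then rose with YEXX-2A and 2, Irf1 and Stat2, with YWCH-4A. The medians for YEXX-2A over vehicle were then 0.86 for the effectors and 0.26 for the factors. The difference between the roles was not tested.

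**Figure D2:**
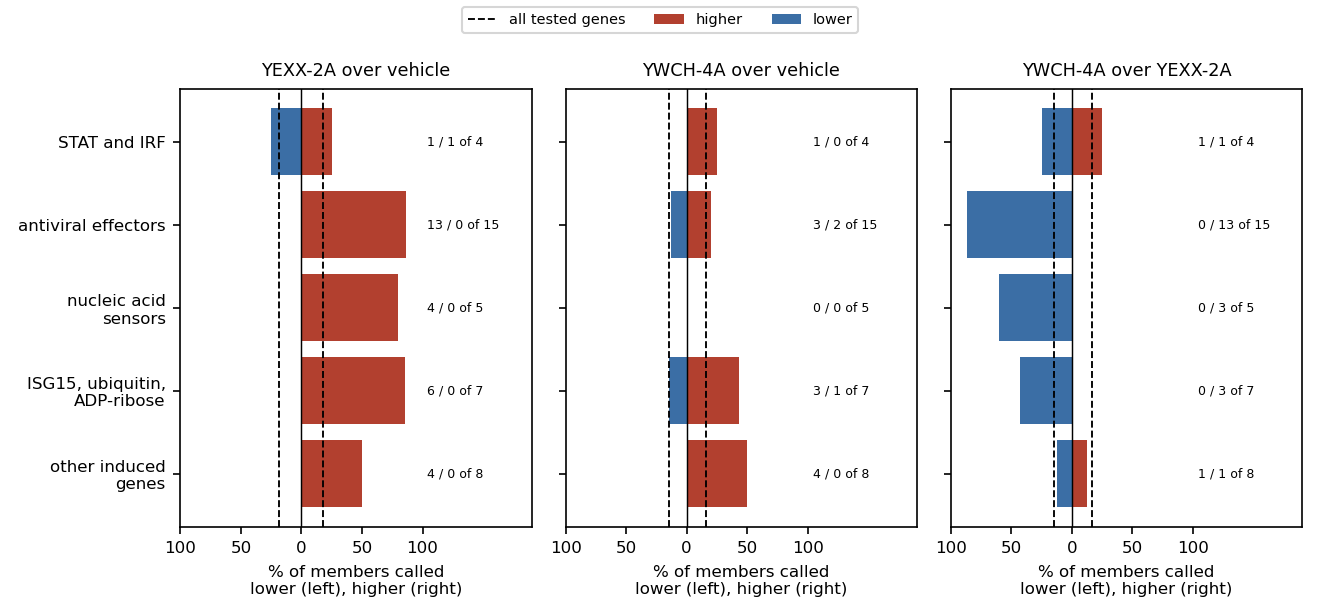
Percent of the members of each role called higher (red, to the right) or lower (blue, to the left) in the 3 comparisons, with the share of all tested genes called in that direction as dashed lines and the counts beside the bars. Of 15 antiviral effectors, 13 were higher with YEXX-2A than with vehicle and 13 were lower with YWCH-4A than with YEXX-2A, against 1 in each direction among the 4 STAT and IRF factors in both comparisons.

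Among the factors, Irf1 was the one that rose with YWCH-4A and fell with YEXX-2A. Irf1 (ENSRNOG00000008144), a transcription factor induced by interferon gamma and by NF-κB, had 171, 169 and 166 CPM in the YWCH-4A libraries, 75.4, 70.0 and 71.8 CPM in the YEXX-2A libraries and 86.9, 94.2 and 81.9 CPM in the vehicle libraries. The YWCH-4A libraries were all above and the YEXX-2A libraries all below the vehicle libraries. Irf1 rose with YWCH-4A (log2 fold change 0.95, SE 0.07, adjusted p = 2.07e-06) and fell with YEXX-2A (log2 fold change -0.27, SE 0.07, adjusted p = 0.0157). Between the compounds it was higher with YWCH-4A (log2 fold change 1.22, SE 0.07, adjusted p = 3.35e-07). The fall with YEXX-2A was not called without YEXX-2A replicate 2 (adjusted p = 0.0731) or when the YEXX-2A and vehicle libraries alone were fitted (adjusted p = 0.0651).

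Irf7 had the same calls as Mx2 and Ifit1 among the effectors, at a smaller size. Irf7 (ENSRNOG00000017414), the amplifier of type I interferon production, had 500.4, 456 and 457 CPM in the YWCH-4A libraries, 749, 654 and 721 CPM in the YEXX-2A libraries and 538, 602 and 477 CPM in the vehicle libraries. All YEXX-2A libraries were above all others, and the YWCH-4A libraries overlapped with the vehicle libraries. It rose with YEXX-2A (log2 fold change 0.39, SE 0.09, adjusted p = 0.0121), was not called with YWCH-4A (log2 fold change -0.20, SE 0.09, adjusted p = 0.124) and was lower with YWCH-4A than with YEXX-2A (log2 fold change -0.59, SE 0.09, adjusted p = 0.000675). Without YEXX-2A replicate 1 the rise had an adjusted p of 0.0525. Per length of transcript Irf7 came after Lgals3bp and Ifi27 alone among the members in each group, at 254 ± 14.3 FPKM with YWCH-4A, 358 ± 24.2 FPKM with YEXX-2A and 257 ± 22.2 FPKM with vehicle (SD, n = 3 each).

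Stat2 and Irf9, whose proteins are parts of the complex that binds the ISRE, were called in no comparison in the edgeR fit to all libraries. With limma-trend on log2(FPKM + 1) both were called higher than vehicle with each compound. Stat2 (ENSRNOG00000031081) had 208, 203 and 212 CPM in the YWCH-4A libraries, 228, 212 and 230.3 CPM in the YEXX-2A libraries and 183, 223 and 189 CPM in the vehicle libraries. Irf9 (ENSRNOG00000019478) had 59.9, 54.6 and 55.5 CPM in the YWCH-4A libraries, 59.3, 57.7 and 67.2 CPM in the YEXX-2A libraries and 51.1, 57.6 and 51.2 CPM in the vehicle libraries. The groups overlapped in Stat2, and in Irf9 the lowest YEXX-2A library was just above the highest vehicle library. Vehicle replicate 2 was the highest vehicle library in both. For YEXX-2A over vehicle the log2 fold change was 0.17 for Stat2 (95% interval 0.02 to 0.33, adjusted p = 0.0973) and 0.20 for Irf9 (95% interval 0.04 to 0.37, adjusted p = 0.0784). Without vehicle replicate 2 both rose with YEXX-2A, by 0.27 (adjusted p = 0.000557) and 0.26 (adjusted p = 0.0108) on the log2 scale. Stat2 then also rose with YWCH-4A, by 0.16 (adjusted p = 0.0128), and was lower with YWCH-4A than with YEXX-2A (-0.10, adjusted p = 0.0484).

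The antiviral effectors with the smallest p-values were Rsad2, Mx2, Oasl and Ifit1. Mx2 (ENSRNOG00000001963), a dynamin-like GTPase that blocks virus replication, had 181, 175 and 169 CPM in the YWCH-4A libraries, 478, 501 and 483 CPM in the YEXX-2A libraries and 167, 117 and 175 CPM in the vehicle libraries. The YEXX-2A libraries were all above the others, while those of YWCH-4A and vehicle overlapped. Mx2 rose with YEXX-2A (log2 fold change 1.67, SE 0.12, adjusted p = 5.5e-05), was not called with YWCH-4A (log2 fold change 0.19, SE 0.12, adjusted p = 0.263) and was lower with YWCH-4A than with YEXX-2A (log2 fold change -1.48, SE 0.12, adjusted p = 8.1e-06). Ifit1 (ENSRNOG00000019050), which binds viral RNA that lacks the cellular cap modification, had 10.04, 8.82 and 10.01 CPM in the YWCH-4A libraries, 30.9, 33.2 and 32.9 CPM in the YEXX-2A libraries and 11.7, 6.89 and 11.4 CPM in the vehicle libraries. It showed the same order, with a rise with YEXX-2A (log2 fold change 1.68, SE 0.16, adjusted p = 0.000363), no call with YWCH-4A (log2 fold change -0.07, SE 0.17, adjusted p = 0.799) and a lower level with YWCH-4A than with YEXX-2A (log2 fold change -1.75, SE 0.16, adjusted p = 1.9e-05).

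Rsad2 split the compounds to opposite sides of vehicle. Rsad2 (ENSRNOG00000007539), which encodes viperin, an enzyme that makes a chain-terminating nucleotide, had 20.7, 26.2 and 20.3 CPM in the YWCH-4A libraries, 64.0, 71.6 and 67.6 CPM in the YEXX-2A libraries and 36.9, 31.7 and 37.9 CPM in the vehicle libraries. No library of one group overlapped with those of another. It rose with YEXX-2A (log2 fold change 0.93, SE 0.11, adjusted p = 0.000884), fell with YWCH-4A (log2 fold change -0.66, SE 0.11, adjusted p = 0.00135) and was lower with YWCH-4A than with YEXX-2A (log2 fold change -1.59, SE 0.11, adjusted p = 2.39e-06).

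Oasl was the effector that did not rise with YEXX-2A and fell with YWCH-4A. Oasl (ENSRNOG00000001187), of the oligoadenylate synthetase-like family, had 51.5, 44.6 and 45.9 CPM in the YWCH-4A libraries, 108, 92.2 and 103 CPM in the YEXX-2A libraries and 114, 127 and 98.99 CPM in the vehicle libraries. The YWCH-4A libraries lay below all others, and the YEXX-2A and vehicle libraries overlapped. The change was -0.16 for YEXX-2A over vehicle on the log2 scale (95% interval -0.36 to 0.03, adjusted p = 0.209). Oasl fell with YWCH-4A (log2 fold change -1.26, SE 0.10, adjusted p = 6.33e-06) and was lower with YWCH-4A than with YEXX-2A (log2 fold change -1.10, SE 0.10, adjusted p = 2.16e-05). Oasl2, a gene of the same family, rose with both compounds, by 0.38 with YWCH-4A and 0.86 with YEXX-2A on the log2 scale. The promoter window of Oasl2 held the ISRE core, and that of Oasl held none but an NF-κB match at -165. Of the 10 members whose windows lacked the core, 4 rose with YEXX-2A. A part of these motifs in the changes was not tested.

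**Figure D3:**
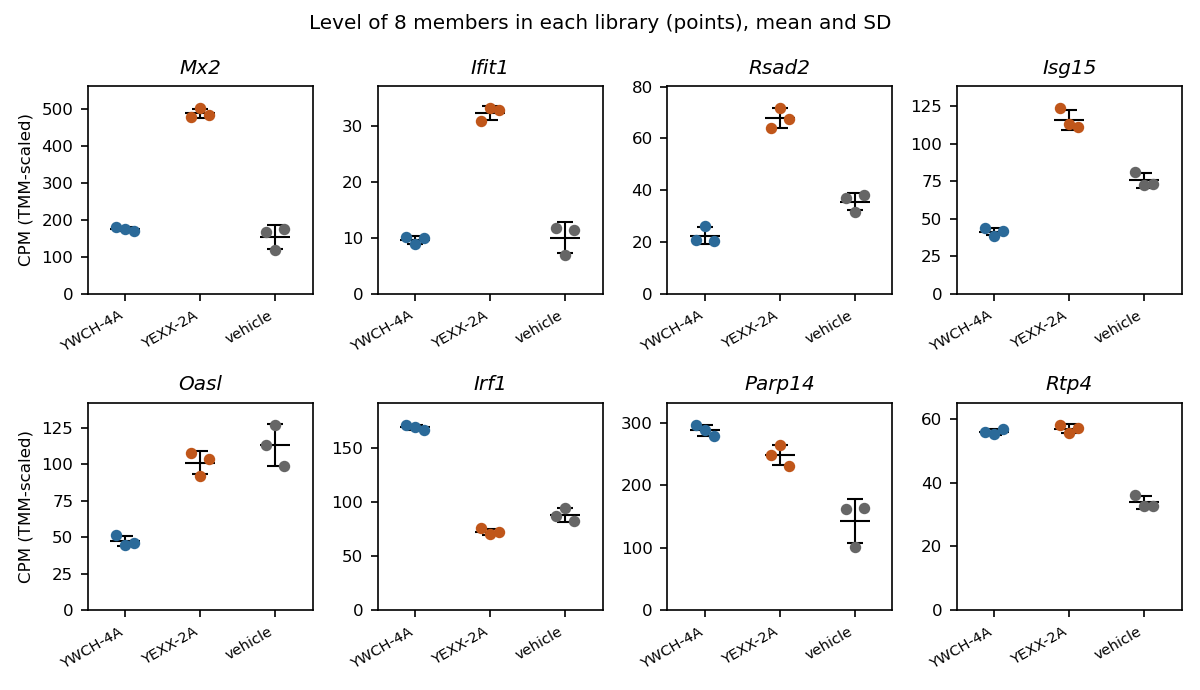
CPM (scaled library sizes) of 8 members in each library (points), with the mean and SD of each group (n = 3), axes starting at 0. Mx2 and Ifit1 are high in the YEXX-2A libraries alone, Rsad2 and Isg15 lie lowest with YWCH-4A, Oasl is low with YWCH-4A alone, Irf1 is high with YWCH-4A alone, and Parp14 and Rtp4 are above vehicle with both compounds.

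Of the other 11 effectors, 7 had the calls of Mx2 and Ifit1. Mx1, Ifit2, Ifit3, Samd9, Eif2ak2, Cmpk2 and Oas1a rose with YEXX-2A, were not called with YWCH-4A and were lower with YWCH-4A than with YEXX-2A. Their log2 fold changes for YEXX-2A over vehicle ran from 0.43 for Oas1a, a synthetase of the activator of RNase L, to 2.04 for Samd9, a restriction factor of poxviruses. Samd9 averaged 7.59 ± 2.04 CPM with YWCH-4A, 42.7 ± 10.9 CPM with YEXX-2A and 10.4 ± 3.58 CPM with vehicle (SD, n = 3 each), and had the lowest log2 fold change of the members for YWCH-4A over YEXX-2A (log2 fold change -2.48, SE 0.27, adjusted p = 5.95e-05). Eif2ak2, which encodes the kinase PKR that halts translation, rose by 1.10 with YEXX-2A and was at -0.05 with YWCH-4A (adjusted p = 0.832). Cmpk2 was near the threshold with YWCH-4A (0.27, adjusted p = 0.0539), and its YWCH-4A libraries were all above the vehicle libraries. Its rise with YWCH-4A was called without YWCH-4A replicate 2 (adjusted p = 0.0352) and with limma-trend on log2(FPKM + 1).

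Gbp1 and Gbp2, members that encode guanylate-binding proteins, rose with both compounds. Gbp1, a GTPase that attacks pathogen vacuoles, was higher than with vehicle in both cases (log2 fold change 2.08, SE 0.50, adjusted p = 0.00911 for YWCH-4A and log2 fold change 3.21, SE 0.45, adjusted p = 0.00192 for YEXX-2A). These values rest on 48 counts with YWCH-4A, 103 with YEXX-2A and 8 with vehicle, summed over 3 libraries each. The vehicle libraries held 2, 3 and 3 counts, under the filter's minimum of 10, so Gbp1 passed the filter only through libraries with a compound. Its rises over vehicle are thus not independent of the filter, and they are in the counts and ranks of members above. Under the filter of 1 CPM or more in 6 libraries it was not tested, nor for YWCH-4A over vehicle with only those groups fitted. Gbp1 was also lower with YWCH-4A than with YEXX-2A (log2 fold change -1.12, SE 0.33, adjusted p = 0.0251), a call that was lost without YEXX-2A replicate 1 or 2 or YWCH-4A replicate 1 or 3 (adjusted p up to 0.114). Gbp2 rose by 0.65 with YWCH-4A and 0.64 with YEXX-2A, and the difference between the compounds was 0.01 (95% interval -0.27 to 0.29). The rise of Gbp2 with YEXX-2A had an adjusted p of 0.0547 without YEXX-2A replicate 2. Gbp4 and Gbp5 are outside the member list and were named after their values were seen. Gbp4 rose by 1.18 with YWCH-4A and 1.23 with YEXX-2A, while Gbp5 rose by 2.05 with YWCH-4A and was not called with YEXX-2A (0.14, adjusted p = 0.695). Bst2, which encodes tetherin, a membrane protein that holds budding virions, was called in no comparison (-0.03 with YWCH-4A and 0.25 with YEXX-2A over vehicle). Reads of the Mx, Gbp and Oas families can be shared between close copies. The deposited counts of Mx1, Mx2 and Oas1a were not whole in some or all libraries, while those of Gbp1 and Gbp2 were whole. This leaves the split within the Mx and Oas families uncertain.

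Sensors of nucleic acids rose with YEXX-2A in 4 of 5 cases, beside 17.6% of all tested genes. With YWCH-4A none was called, beside 15.7% of all tested genes that rose and 14.9% that fell. Without vehicle replicate 2 all 5 rose with YEXX-2A, and with YWCH-4A 2 rose and 2 fell. In that fit 17.5% of all genes rose with YEXX-2A, and 20.3% rose and 19.1% fell with YWCH-4A. Ifih1 (ENSRNOG00000006227), which encodes MDA5, a sensor of long double-stranded RNA, had 14.1, 14.01 and 11.7 CPM in the YWCH-4A libraries, 30.2, 33.5 and 26.4 CPM in the YEXX-2A libraries and 16.3, 7.92 and 16.6 CPM in the vehicle libraries. Ddx58 (ENSRNOG00000006384), which encodes RIG-I, a sensor of short RNA with a triphosphate end, had 13.7, 13.96 and 14.8 CPM in the YWCH-4A libraries, 22.4, 21.8 and 21.7 CPM in the YEXX-2A libraries and 18.8, 11.9 and 16.9 CPM in the vehicle libraries. In both the YEXX-2A libraries were above all others, and vehicle replicate 2 was the lowest of all libraries. Ifih1 rose with YEXX-2A (log2 fold change 1.13, SE 0.22, adjusted p = 0.00717) and was lower with YWCH-4A than with YEXX-2A (log2 fold change -1.18, SE 0.22, adjusted p = 0.00247). Ddx58 rose by 0.46 with YEXX-2A (adjusted p = 0.0308) and was lower with YWCH-4A than with YEXX-2A (log2 fold change -0.63, SE 0.14, adjusted p = 0.00655). The rise of Ddx58 was not called when any single YEXX-2A library or YWCH-4A replicate 1 was left out (adjusted p up to 0.0901).

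With YWCH-4A, Ifih1 was at -0.04 and Ddx58 at -0.17 on the log2 scale over vehicle. Both fell with YWCH-4A when vehicle replicate 2 was left out, by 0.31 (adjusted p = 0.0457) and 0.34 (adjusted p = 0.00835) on the log2 scale. Zbp1 (ENSRNOG00000006314), a sensor of left-handed nucleic acid that can start necroptosis, had 1.74, 1.505 and 2.31 CPM in the YWCH-4A libraries, 3.91, 3.71 and 3.26 CPM in the YEXX-2A libraries and 2.34, 2.14 and 1.46 CPM in the vehicle libraries. All YEXX-2A libraries were above all others. Zbp1 rose with YEXX-2A (log2 fold change 0.87, SE 0.23, adjusted p = 0.0189) and was lower with YWCH-4A than with YEXX-2A (log2 fold change -0.99, SE 0.22, adjusted p = 0.00731), and the rise was not called without YEXX-2A replicate 1 or 2 (adjusted p up to 0.0697).

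Dhx58 (ENSRNOG00000018247), which encodes LGP2, a relative of RIG-I without its signalling domains, had 58.9, 60.9 and 57.5 CPM in the YWCH-4A libraries, 69.0, 65.9 and 73.0 CPM in the YEXX-2A libraries and 50.4, 60.7 and 51.6 CPM in the vehicle libraries. The YEXX-2A libraries were above all others, and the YWCH-4A and vehicle libraries overlapped. It rose with YEXX-2A (log2 fold change 0.35, SE 0.08, adjusted p = 0.0135), and the difference between the compounds was not called (log2 fold change -0.23, SE 0.08, adjusted p = 0.0566). That difference was called without vehicle replicate 2 (-0.23, adjusted p = 0.00174), with upper-quartile factors, with DESeq2, with limma-voom and when the libraries of the compounds alone were fitted. Dhx58 also rose with YWCH-4A over vehicle when vehicle replicate 2 was left out, by 0.21 (adjusted p = 0.0109). Adar, the editor that marks self RNA, was called in no comparison (0.19 with YWCH-4A, adjusted p = 0.0665, and 0.17 with YEXX-2A, adjusted p = 0.0743). Adar rose with both when vehicle replicate 2 was left out, by 0.26 with YWCH-4A (adjusted p = 0.000481) and 0.24 with YEXX-2A (adjusted p = 0.00168).

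In the ISG15, ubiquitin and ADP-ribose system, 6 of 7 members rose with YEXX-2A, beside 17.6% of all tested genes. With YWCH-4A 3 rose and 1 fell, beside 15.7% and 14.9% of all tested genes. Without vehicle replicate 2 all 7 rose with YEXX-2A, and 3 rose and 2 fell with YWCH-4A. In that fit 17.5% of all genes rose with YEXX-2A, and 20.3% rose and 19.1% fell with YWCH-4A. Isg15 (ENSRNOG00000021802), the ubiquitin-like modifier, had 43.4, 38.4 and 42.0 CPM in the YWCH-4A libraries, 124, 113 and 111 CPM in the YEXX-2A libraries and 80.9, 72.5 and 72.9 CPM in the vehicle libraries. The groups did not overlap. Isg15 rose with YEXX-2A (log2 fold change 0.62, SE 0.08, adjusted p = 0.00107), fell with YWCH-4A (log2 fold change -0.87, SE 0.08, adjusted p = 1.31e-05) and was lower with YWCH-4A than with YEXX-2A (log2 fold change -1.49, SE 0.08, adjusted p = 2.52e-07). Usp18 (ENSRNOG00000037198), the protease that removes ISG15 and also restrains the type I interferon receptor, had 123, 112 and 122 CPM in the YWCH-4A libraries, 175, 172 and 191 CPM in the YEXX-2A libraries and 126, 129 and 129 CPM in the vehicle libraries. The YEXX-2A libraries were above and the YWCH-4A libraries below all vehicle libraries. It rose with YEXX-2A (log2 fold change 0.49, SE 0.06, adjusted p = 0.00141), was not called with YWCH-4A (log2 fold change -0.10, SE 0.06, adjusted p = 0.249) and was lower with YWCH-4A than with YEXX-2A (log2 fold change -0.59, SE 0.06, adjusted p = 6.23e-05). Herc6 (ENSRNOG00000023969), the ligase that attaches ISG15 in mice, had 7.79, 7.47 and 6.69 CPM in the YWCH-4A libraries, 18.5, 22.3 and 15.7 CPM in the YEXX-2A libraries and 10.2, 5.39 and 9.11 CPM in the vehicle libraries. The YEXX-2A libraries were above all others. Herc6 rose with YEXX-2A (log2 fold change 1.19, SE 0.21, adjusted p = 0.00435) and was lower with YWCH-4A than with YEXX-2A (log2 fold change -1.37, SE 0.20, adjusted p = 0.000598). Over vehicle Herc6 was at -0.18 with YWCH-4A, and at -0.40 without vehicle replicate 2 (adjusted p = 0.0445).

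Parp14, Parp9 and Dtx3l, the members tied to ADP-ribosylation, rose with both compounds. Outside the member list, and named after their values were seen, Parp12 rose by 0.43 with YWCH-4A and 0.38 with YEXX-2A, while Parp10 was called with neither (0.07 with YWCH-4A and -0.12 with YEXX-2A). Parp14 (ENSRNOG00000023334), an ADP-ribosyltransferase, had 297, 289 and 279 CPM in the YWCH-4A libraries, 248, 264 and 231 CPM in the YEXX-2A libraries and 162, 101 and 163 CPM in the vehicle libraries. All libraries of both compounds were above all vehicle libraries, among which replicate 2 was the lowest. Parp14 rose with YWCH-4A (log2 fold change 1.02, SE 0.15, adjusted p = 0.000442) and with YEXX-2A (log2 fold change 0.80, SE 0.15, adjusted p = 0.00557), and the difference between the compounds was 0.22 (95% interval -0.07 to 0.50, adjusted p = 0.285). That difference, without vehicle replicate 2, was 0.22 and called (adjusted p = 0.000862).

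Parp9 and Dtx3l encode partners in a complex that modifies ubiquitin. Parp9 rose by 0.86 with YWCH-4A and 0.78 with YEXX-2A, and Dtx3l by 0.66 with YWCH-4A and 0.69 with YEXX-2A, on the log2 scale. The compounds differed by 0.08 in Parp9 (95% interval -0.20 to 0.37) and by -0.03 in Dtx3l (95% interval -0.28 to 0.21). Trim25, a ubiquitin ligase that activates RIG-I, was called in none (-0.08 with YWCH-4A and 0.09 with YEXX-2A over vehicle), and without vehicle replicate 2 its change with YEXX-2A was 0.16 (adjusted p = 0.0438).

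**Figure D4:**
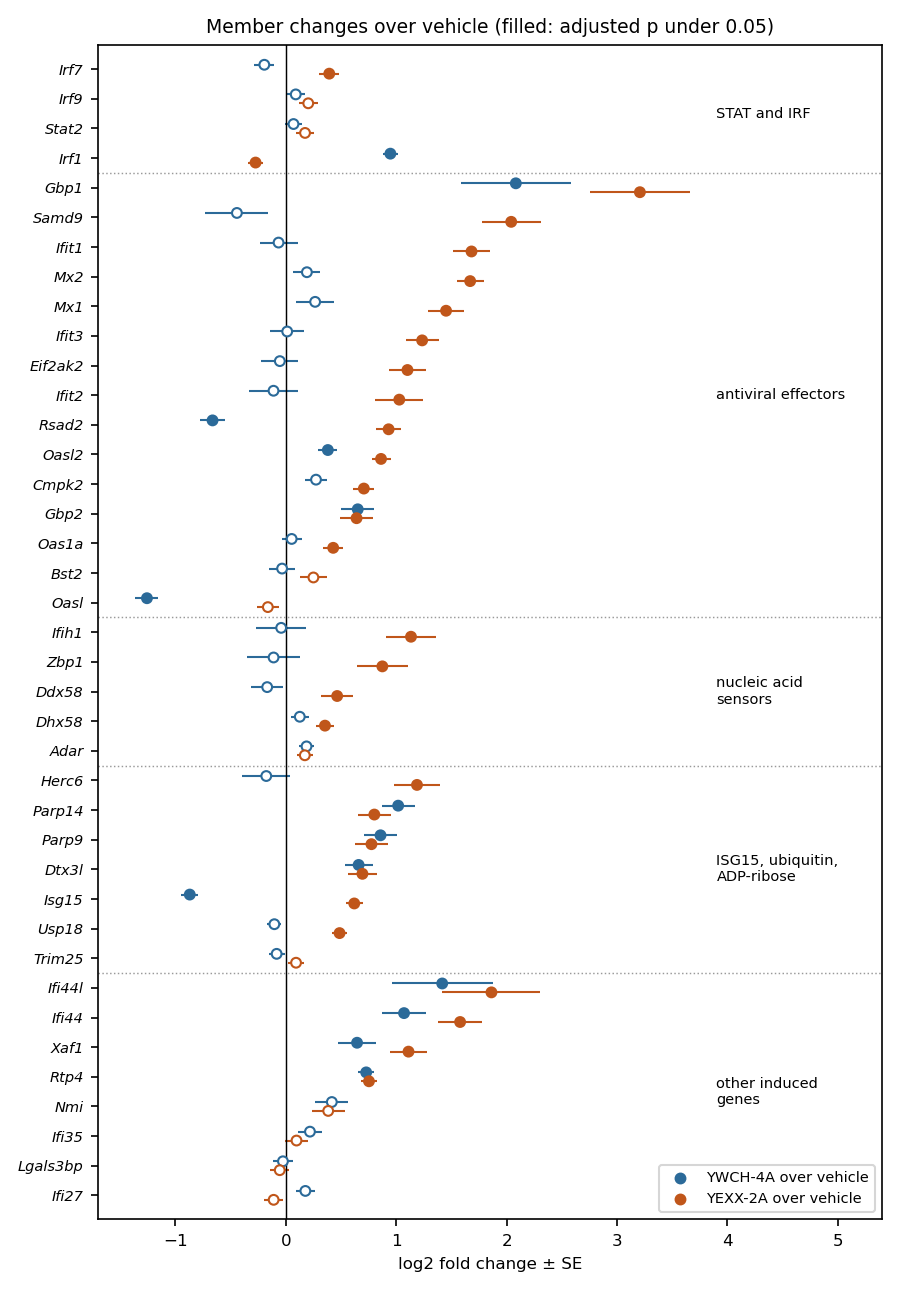
Log2 fold change over vehicle (± SE, from edgeR on 3 libraries a group) of the 39 members by role, for YWCH-4A (blue) and YEXX-2A (orange), filled where the adjusted p was under 0.05. The effectors from Samd9 to Ifit2 in the plot lie above 1 with YEXX-2A and are open points with YWCH-4A, between -0.44 (Samd9) and 0.27 (Mx1), while Irf1, Oasl, Rsad2 and Isg15 have their YWCH-4A points far from the YEXX-2A points.

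Among the 8 other induced genes, 4 rose with both compounds and none fell over vehicle. Of all tested genes 17.6% rose with YEXX-2A and 15.7% with YWCH-4A. Without vehicle replicate 2, 5 rose with YEXX-2A and 6 with YWCH-4A, beside 17.5% and 20.3% of all genes tested in that fit. Rtp4 (ENSRNOG00000028895), a chaperone of receptors that also restrains flaviviruses, had 55.8, 55.2 and 56.9 CPM in the YWCH-4A libraries, 58.1, 55.5 and 57.1 CPM in the YEXX-2A libraries and 36.1, 32.6 and 32.6 CPM in the vehicle libraries. The libraries of both compounds lay in the same narrow range and above all vehicle libraries. Rtp4 rose with YWCH-4A (log2 fold change 0.73, SE 0.07, adjusted p = 2.17e-05) and with YEXX-2A (log2 fold change 0.75, SE 0.07, adjusted p = 0.000277), and the difference between the compounds was -0.03 (95% interval -0.16 to 0.11). Ifi44 (ENSRNOG00000022218), an induced protein with a GTPase-like fold, had 27.7, 29.0 and 27.3 CPM in the YWCH-4A libraries, 38.0, 41.9 and 39.6 CPM in the YEXX-2A libraries and 15.0, 7.92 and 16.9 CPM in the vehicle libraries. Its YEXX-2A libraries were the highest and its vehicle libraries the lowest, with vehicle replicate 2 below the other vehicle libraries. It rose with YWCH-4A (log2 fold change 1.07, SE 0.20, adjusted p = 0.00239) and with YEXX-2A (log2 fold change 1.58, SE 0.20, adjusted p = 0.0012), and the compounds did not differ past the threshold (log2 fold change -0.51, SE 0.19, adjusted p = 0.0633). Without vehicle replicate 2 or vehicle replicate 3 that difference was called, at -0.51 in both cases.

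Ifi44l and Xaf1 were low transcripts, some of whose calls depended on single libraries. Ifi44l (ENSRNOG00000049994) had 1.74, 1.87 and 1.13 CPM in the YWCH-4A libraries, 1.82, 2.75 and 1.92 CPM in the YEXX-2A libraries and 1.04, 0.158 and 0.510 CPM in the vehicle libraries. Summed over libraries these were 91 counts with YWCH-4A, 120 with YEXX-2A and 25 with vehicle. Vehicle replicates 2 and 3 held 2 and 7 counts, under the filter's minimum of 10, so Ifi44l too passed the filter through the compound libraries. All libraries of both compounds were above all vehicle libraries. Ifi44l rose with YWCH-4A (log2 fold change 1.42, SE 0.46, adjusted p = 0.0377) and with YEXX-2A (log2 fold change 1.86, SE 0.44, adjusted p = 0.0141). Its rise with YWCH-4A was not called without vehicle replicate 3, without YEXX-2A replicate 1 or 3 or without YWCH-4A replicate 1 or 2 (adjusted p up to 0.116), and that with YEXX-2A not without YEXX-2A replicate 2 (adjusted p = 0.0631). Xaf1 (ENSRNOG00000037371), a partner of inhibitors of apoptosis, had 8.35, 9.60 and 9.005 CPM in the YWCH-4A libraries, 12.9, 12.9 and 11.4 CPM in the YEXX-2A libraries and 6.32, 4.04 and 6.78 CPM in the vehicle libraries. No library of one group overlapped with those of another. Xaf1 rose with YWCH-4A (log2 fold change 0.64, SE 0.17, adjusted p = 0.0159) and with YEXX-2A (log2 fold change 1.11, SE 0.17, adjusted p = 0.0027). It was lower with YWCH-4A than with YEXX-2A (log2 fold change -0.47, SE 0.16, adjusted p = 0.047), a call that was lost when any single library other than vehicle replicate 2 or 3 was left out (adjusted p up to 0.16). Its rise with YWCH-4A was not called without YWCH-4A replicate 2 (adjusted p = 0.0623).

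Of the remaining members, Lgals3bp, a secreted glycoprotein, and Ifi27, a small mitochondrial and nuclear membrane protein, had the highest FPKM of the members in every group. Lgals3bp was at 969.6 ± 10.2 FPKM with YWCH-4A, 893 ± 34.3 FPKM with YEXX-2A and 873 ± 77.6 FPKM with vehicle (SD, n = 3 each), and was called in no comparison. Ifi27 was called only between the compounds, higher with YWCH-4A than with YEXX-2A (log2 fold change 0.29, SE 0.08, adjusted p = 0.0251), and that call was lost when any single library of either compound was left out (adjusted p up to 0.0988). Ifi27 also rose with YWCH-4A over vehicle when vehicle replicate 2 was left out, by 0.28 (adjusted p = 0.000291). Nmi and Ifi35, partners that act together in innate signalling, were not called in the edgeR fit to all libraries. With limma-trend on log2(FPKM + 1) both were called higher with YWCH-4A than with vehicle. Over vehicle, Nmi was at 0.42 with YWCH-4A and 0.38 with YEXX-2A, and Ifi35 at 0.22 with YWCH-4A and 0.10 with YEXX-2A. Ifi35 rose with both when vehicle replicate 2 was left out, by 0.36 with YWCH-4A (adjusted p = 9.26e-05) and 0.24 with YEXX-2A (adjusted p = 0.00551), and Nmi was at 0.29 with YWCH-4A and 0.26 with YEXX-2A and still not called. At the low end Gbp1 had the lowest FPKM in every group.

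Sorted by their calls, 15 members rose with YEXX-2A, were not called with YWCH-4A and were lower with YWCH-4A than with YEXX-2A. Apart from Irf7 these were Mx1, Mx2, Ifit1, Ifit2, Ifit3, Oas1a, Cmpk2, Samd9, Eif2ak2, Ddx58, Ifih1, Zbp1, Usp18 and Herc6. Another 7 members, Gbp2, Parp9, Parp14, Dtx3l, Ifi44, Ifi44l and Rtp4, rose with both compounds without a called difference between them. Oasl2, Gbp1 and Xaf1 rose with both and were lower with YWCH-4A than with YEXX-2A. Rsad2 and Isg15 rose with YEXX-2A and fell with YWCH-4A. The 8 members called in no comparison were Stat2, Irf9, Bst2, Adar, Trim25, Ifi35, Nmi and Lgals3bp. Without vehicle replicate 2, Ddx58, Ifih1 and Herc6 also fell with YWCH-4A, and Ifi44 and Parp14 differed between the compounds. Stat2, Irf9, Adar, Trim25 and Ifi35 were then called in some comparison. The share of all tested genes in each class was not counted, so the classes only sort the members.

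Read by promoter, the 19 members with the ISRE core in their window had 15 called higher and none lower with YEXX-2A (median log2 fold change 0.86). The 10 members whose windows lacked it had 4 higher and 1 lower, with a median of 0.19. Of all tested genes 17.6% rose and 18.5% fell with YEXX-2A. With YWCH-4A over vehicle 8 of 19 members with the core rose and 1 fell (median 0.18). Among those without it 2 of 10 rose and 1 fell (median 0.15), near the 15.7% and 14.9% of all tested genes. For YWCH-4A over YEXX-2A, 10 of 19 members with the core were lower and 1 higher, and 4 of 10 without it were lower and 1 higher. Over all tested genes 15.1% were lower and 16.2% higher in that comparison. These counts, given with all libraries only, describe the windows, and no test was made on them.

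The interferons themselves were at or near 0. Of 10 listed interferon genes, 8 were at 0 counts in all 9 libraries (Ifna1, Ifna2, Ifna4, Ifna5, Ifna11, Ifnk, Ifng and Ifnl3). A count of 0 over all 9 libraries allows up to 3 counts, or 0.0197 CPM, for counting error only. Ifnb1, the first type I interferon that fibroblasts make on infection, had 0 summed counts with YWCH-4A, 2 with YEXX-2A and 1 with vehicle. Ifne had 2 with YWCH-4A, 3 with YEXX-2A and 2 with vehicle. At this depth no difference in interferon transcripts was detectable.

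The genes that carry the interferon signal were counted apart from the members, and counts of these lists are not given without vehicle replicate 2. Of 9 receptor and kinase genes, 6 rose and none fell with YWCH-4A, beside 15.7% of all tested genes that rose and 14.9% that fell. With YEXX-2A 1 rose and 2 fell (11.1% and 22.2%), near the 17.6% and 18.5% of all tested genes. Between the compounds, 7 were higher and none lower with YWCH-4A than with YEXX-2A, beside 16.2% and 15.1% of all tested genes. Jak2, the kinase of the interferon gamma receptor, averaged 92.1 ± 4.05 CPM with YWCH-4A, 42.1 ± 2.20 CPM with YEXX-2A and 28.6 ± 7.75 CPM with vehicle (SD, n = 3 each). It rose with both (log2 fold change 1.68, SE 0.16, adjusted p = 1.69e-05 for YWCH-4A and log2 fold change 0.55, SE 0.16, adjusted p = 0.0245 for YEXX-2A) and was higher with YWCH-4A than with YEXX-2A (log2 fold change 1.13, SE 0.15, adjusted p = 0.000284). Ifngr2, a chain of that receptor, rose by 0.23 with YWCH-4A and fell by 0.22 with YEXX-2A. Ifnlr1, a chain of the type III receptor, rose by 0.43 with YWCH-4A and was at -0.22 with YEXX-2A (adjusted p = 0.125). Tyk2, a kinase of the type I receptor, was at 0.19 with YWCH-4A (adjusted p = 0.118) and fell by 0.27 with YEXX-2A.

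Among 11 genes of sensing and induction, 5 rose and none fell with YWCH-4A, beside 15.7% of all tested genes that rose and 14.9% that fell. With YEXX-2A 1 rose and 3 fell, beside 17.6% and 18.5% of all tested genes. Ikbke, a kinase that activates IRF3 and IRF7, averaged 56.3 ± 2.94 CPM with YWCH-4A, 20.2 ± 0.846 CPM with YEXX-2A and 22.5 ± 0.608 CPM with vehicle (SD, n = 3 each). It rose with YWCH-4A (log2 fold change 1.32, SE 0.08, adjusted p = 5.9e-07) and was not called with YEXX-2A (log2 fold change -0.16, SE 0.08, adjusted p = 0.141). Tbk1, its close relative, rose with both, by 0.78 with YWCH-4A and 0.59 with YEXX-2A. Irf8 rose by 0.37 with YWCH-4A and fell by 0.27 with YEXX-2A, as Irf1 did. Irf5 fell by 0.52 with YEXX-2A and was at -0.15 with YWCH-4A (adjusted p = 0.321).

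Of 8 negative regulators, 2 rose and none fell with YWCH-4A, beside 15.7% of all tested genes that rose and 14.9% that fell. With YEXX-2A 1 rose and 1 fell (12.5% each), near the 17.6% and 18.5% of all tested genes. Socs3, an inhibitor of cytokine receptor kinases that STAT3 induces, averaged 22.4 ± 0.213 CPM with YWCH-4A, 6.70 ± 0.158 CPM with YEXX-2A and 10.1 ± 0.794 CPM with vehicle (SD, n = 3 each). It rose with YWCH-4A (log2 fold change 1.15, SE 0.10, adjusted p = 6.5e-06) and fell with YEXX-2A (log2 fold change -0.59, SE 0.10, adjusted p = 0.00438). Ptpn2, a phosphatase of STAT proteins, rose by 0.53 with YWCH-4A and 0.65 with YEXX-2A. Socs1, the inhibitor most tied to interferon signalling, was called in no comparison (-0.20 with YWCH-4A and -0.29 with YEXX-2A).

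**Figure D5:**
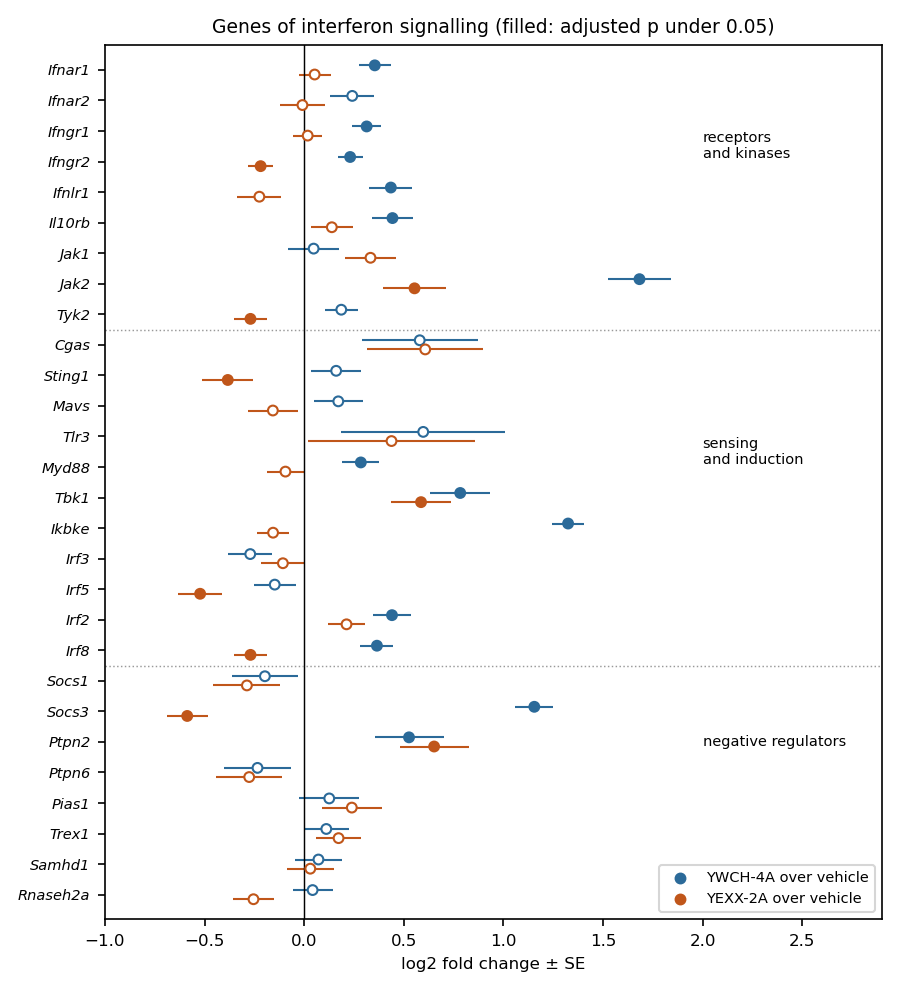
Log2 fold change over vehicle (± SE, from edgeR on 3 libraries a group) of the tested receptor, kinase, sensing, induction and regulator genes, for YWCH-4A (blue) and YEXX-2A (orange), filled where the adjusted p was under 0.05. Jak2, Ikbke and Socs3 have the largest YWCH-4A values, at 1.68, 1.32 and 1.15, with YEXX-2A values of 0.55, -0.16 and -0.59.

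A further 30 tested interferon-induced genes outside the member list gave 15 higher and 2 lower with YWCH-4A, beside 15.7% and 14.9% of all tested genes. With YEXX-2A 18 were higher and none lower, beside 17.6% and 18.5% of all tested genes. Between the compounds, 4 were higher and 9 lower with YWCH-4A than with YEXX-2A, beside 16.2% and 15.1% of all tested genes. Oas2, a synthetase of the RNase L activator, was at 0.02 with YWCH-4A (adjusted p = 0.915) and rose by 1.02 with YEXX-2A. Isg20, an RNA exonuclease, fell by 0.86 with YWCH-4A and rose by 0.40 with YEXX-2A, as did Rsad2 and Isg15. Nlrc5, the activator of MHC class I genes, rose by 0.96 with YWCH-4A and was at -0.10 with YEXX-2A (adjusted p = 0.476). Igtp, a GTPase of the family that interferon gamma induces, rose by 0.65 with YWCH-4A and 0.89 with YEXX-2A.

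Markers of endothelium and, Cd68 aside, of leukocytes were low. Leukocyte markers other than Cd68 summed to 0.125 to 0.259 CPM per library with YWCH-4A, 0.0740 to 0.773 CPM with YEXX-2A and 0.0729 to 0.326 CPM with vehicle, and Cd3e and Siglech had no count. Cd68, which fibroblasts also express, made up most of the list's sum and was set aside after its values were seen. It averaged 69.2 ± 3.87 CPM with YWCH-4A, 42.9 ± 1.64 CPM with YEXX-2A and 53.8 ± 8.11 CPM with vehicle (SD, n = 3 each), and was called in every comparison, at 0.37 for YWCH-4A over vehicle, -0.33 for YEXX-2A over vehicle and 0.69 for YWCH-4A over YEXX-2A on the log2 scale. Endothelial markers summed to 2.75 to 3.99 CPM with YWCH-4A, 1.63 to 4.32 CPM with YEXX-2A and 2.22 to 2.80 CPM with vehicle. Kidney epithelial markers summed to 916 to 965 CPM with YWCH-4A, 1516 to 1602 CPM with YEXX-2A and 1785 to 2299 CPM with vehicle, nearly all of it Krt8, a keratin, and Epcam, Krt18 and Umod had no count. The fibroblast markers summed to 10671 to 11588 CPM with YWCH-4A, 32368 to 35624 CPM with YEXX-2A and 43011 to 55926 CPM with vehicle, with Dcn and Thy1 near 0. Most of that sum was Col1a1, Col3a1 and Vim. Pdgfra and Pdgfrb, growth factor receptors of the same list, were singled out after their values were seen. Pdgfra rose by 0.69 with YWCH-4A (adjusted p = 7.25e-05) and was not called with YEXX-2A (0.03). Pdgfrb fell by 0.60 with YEXX-2A and was not called with YWCH-4A (0.07). Cd68 and the epithelial and fibroblast sums moved with the groups, and their part in the results on the members was not tested.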

How the data were processed

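RNA-seq was made on 9 libraries of NRK-49F cells in 3 groups of 3. Per the labels' protocols, mRNA was captured on oligo(dT) beads and NEBNext Ultra libraries were prepared. The gene table deposited by the authors holds estimated counts (expected counts) and FPKM for each gene in each library, per the file headers. StringTie 1.3.1, RSEM, DESeq2 and edgeR are named without a role in the submitters' processing notes, while which aligner, build or annotation was used is not given in the sources used here. Of the deposited counts above 0, 8.87% were not whole, and counts were rounded before testing. A further deposited table of group values was not used.

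Low genes were filtered by filterByExpr in edgeR 4.0.16 (minimum count 10), and CPM were computed on TMM-scaled library sizes. A robust edgeR quasi-likelihood model of the 3 groups was fitted to all 9 libraries, and the comparisons were two-sided, with Benjamini-Hochberg adjustment over all 11473 genes tested and a threshold of 0.05. Standard errors were derived from the log2 fold change and its F statistic. The 95% intervals take a normal quantile of that error. They are therefore approximate and narrower than the F test implies, and can leave out 0 where p is above 0.05. The test was checked on simulated counts with 200 changed genes and the same spread in all groups. That check does not cover the unequal spread of the groups in these data. Alternatives were DESeq2 size factors and upper-quartile factors in edgeR, no filter, a filter of 1 CPM or more in 6 libraries, DESeq2 1.42.0, limma-voom and limma-trend on log2(FPKM + 1) with limma 3.58.1, only the groups compared, a replicate block and each library left out, in R 4.3.3.

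Members, pathway lists and tests were chosen with earlier results of these data known. Library values are given for the 4 STAT and IRF factors and the 4 members of each other role with the smallest p in any comparison, and the other members by counts, ranges and examples. Genes outside the members were taken from fixed pathway lists, up to 4 a list by smallest p, plus those with no count. Ifnb1 and Ifne, which were not tested, were named too, and Gbp4, Gbp5, Parp10 and Parp12 were added after their values were seen. Of 74 pathway genes 71 were in the table, and 58 of them were tested. A gene of these lists is not reported here and is in none of their counts. Antisense reads are treated as not separable. The RefSeq tables gave promoter windows of 300 bases in assembly GRCr8, matched by symbol.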

Additional observations from a re-analysis of the deposited data

How the results depend on the processing

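Across the 18 alternatives no called member changed sign. Of the 29 calls for YEXX-2A over vehicle, 23 held with each library left out in turn, as did 12 of 14 for YWCH-4A over vehicle and 20 of 23 for YWCH-4A over YEXX-2A. The members that fell with YEXX-2A numbered 0 with only the groups compared fitted and 0 to 2 with a library left out, against 1 with all libraries. Those that rose with YWCH-4A over vehicle numbered 20 with limma-trend on log2(FPKM + 1), against 11. The members added were Adar, Cmpk2, Dhx58, Ifi27, Ifi35, Irf9, Nmi, Oas1a and Stat2. In that setting 4700 of all genes were called, against 3516, and the median of all genes was 0.18, against 0.03, while that of the members was 0.26, against 0.09. Those that fell with YWCH-4A over vehicle numbered 3 to 6 with a library left out, against 3, and the 6 came without vehicle replicate 2, when Ddx58, Herc6 and Ifih1 were added. Those higher with YWCH-4A than with YEXX-2A numbered 1 to 3 with a library left out, against 2. With a library left out, 24 to 33 members rose with YEXX-2A, 10 to 16 rose with YWCH-4A and 19 to 25 were lower with YWCH-4A than with YEXX-2A. All genes called in either direction in these comparisons then numbered 1044 to 5308, 2450 to 4588 and 2225 to 6001. With all libraries they numbered 4145, 3516 and 3593. Of these refits, only the one without vehicle replicate 2 has its shares by direction given above. For YEXX-2A over vehicle, Ddx58, Dhx58, Irf1 and Zbp1 lost their call under at least 1 alternative other than leaving out a library, as did Ifi44l for YWCH-4A over vehicle and Ifi27 and Xaf1 for YWCH-4A over YEXX-2A. Dhx58, Ifi44, Parp14 and Trim25 gained a call for YWCH-4A over YEXX-2A under at least 1 of these. Adar, Irf9, Stat2 and Trim25 gained a call for YEXX-2A over vehicle with limma-trend. The cause of these shifts was not tested.

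Libraries with the same replicate number did not deviate together (correlations of -0.27 for replicate 2 and 0.08 for replicate 1 of YEXX-2A and vehicle), so the numbers were not taken to pair samples. With a replicate block, 26 members rose and 1 fell with YEXX-2A, 10 rose and 3 fell with YWCH-4A, and 1 was higher and 20 lower with YWCH-4A than with YEXX-2A. In that fit 1931, 2787 and 2612 of all genes were called in either direction in these comparisons, and their directions were not counted.

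Over all tested genes, 4145 were called for YEXX-2A over vehicle, against 1408 with only those groups fitted, 1931 with the replicate block, 1459 without YEXX-2A replicate 1 and 1044 without YEXX-2A replicate 2. The groups shared an estimate of the spread although vehicle libraries varied most, so p-values may be too small against vehicle and too large between the compounds.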
